A study of Drosophila melanogaster with 10 samples.

Results

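Cytochrome P450 and UDP-glycosyltransferase genes were followed in Drosophila SL2 cells, an established male line from late embryos with features of hemocytes, the blood cells of the fly. Members were chosen by gene symbol alone, as every gene whose symbol begins with Cyp and a digit or with Ugt. The rule reached 120 probe sets and 118 genes. Both Cyp1 and Cyp40 encode cyclophilins, which are protein-folding enzymes and no P450s, and were set aside. The 116 genes left, of 11983 genes on the array, were 81 P450 genes and 35 UDP-glycosyltransferase genes. By family number the P450 genes fell into 37 of the CYP3 clan, 32 of the CYP4 clan, 8 of the mitochondrial clan and 4 of the CYP2 clan.

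The study set cells given double-stranded RNA (dsRNA) against MBD-R2, a chromatin protein of the NSL complex, beside cells given dsRNA against GST, a sequence used here as the control. Construct M1, construct M2 and the GST control had 3 biological replicates each, and 1 sample received no dsRNA. The dsRNA groups received 10 µg, RNA was taken after 7 days, and each sample was hybridised to 1 Affymetrix array. All groups share this 1 cell line, so whole-animal tissues are not represented, and the targeted transcript itself was not analysed here. Below, knockdown names the treatment with M1 or M2.

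P450 enzymes are heme-containing monooxygenases that insert oxygen into fatty acids, hormones, pigments and foreign chemicals, using electrons passed on by reductases. UDP-glycosyltransferases join a sugar from a UDP-sugar to such products, which makes them more soluble and easier to excrete. In flies much of this work is known from the midgut, the Malpighian tubules, the fat body and the oenocytes, while blood cells are less studied for it.

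Values are the deposited GCRMA levels on the log2 scale, so a difference of 1 is a 2-fold change. Levels are compared between arrays for 1 probe set, and means of different genes were ranked only to choose which of the members that did not pass to name. The lowest value in the table was 2.22, and a gene was called undetected when all 10 arrays lay within 1 log2 unit of it. Differences were tested with limma over the 7298 probe sets whose mean level was at least 4, with Benjamini-Hochberg adjustment over all of them and a threshold of 0.05. The arrays fell into sets that the groups do not explain: the arrays of replicates 1 and 2 stood apart from those of replicate 3. On 47 control probe sets the array without dsRNA differed from the replicate 3 arrays by a mean of 0.524 to 0.882 and from the others by 1.45 to 2.11. Differences within each set are therefore given beside the pooled ones for the members that rose.

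Hemocyte identity was checked first. All 10 hemocyte markers had a mean above 4 with GST, M1 and M2, and their mean level lay between 12.45 and 13.18 on every dsRNA array. Of the 10, NimC1, a phagocytosis receptor, passed the test, higher by 2.20 ± 0.27 (SE) with an adjusted p of 0.000633 in limma. With the replicate number as a block ush, a regulator of hemocyte fate, passed as well (0.32 on the log2 scale, adjusted p = 0.0376 in limma). The mean of the list hides opposite differences between knockdown and GST within replicate 3. Below 0 were Pxn (-1.46), Ppn (-0.94), vkg (-0.92), Hml (-0.76), He (-0.38) and Col4a1 (-0.34). Above 0 were NimC1 (1.69), ush (0.37), srp (0.26) and eater (0.23). Markers of tissues known for high P450 levels were near the minimum. The 6 fat body genes averaged 2.27 to 2.28 with GST and at most 2.50 with knockdown, and the 8 midgut genes stayed at 2.22. Among 3 Malpighian tubule genes, Lkr and Irk3 were at the minimum, while Irk1 averaged 10.3 with GST and differed by 0.05 ± 0.23 (limma adjusted p = 0.912). The mean of both oenocyte genes was 2.30 to 2.31 with GST and up to 3.71 with knockdown. By construct, FASN2 averaged at most 3.29 and FASN3 at most 2.31. The neuron list moved with knockdown: its 4 genes averaged 4.14 to 4.44 with GST and 4.67 to 5.18 with knockdown. Of these, brp, a protein of synaptic active zones, was higher by 1.18 ± 0.14 (adjusted p = 0.000631, limma). The RNA-binding protein gene elav differed by 1.06 ± 0.57 (adjusted p = 0.229, limma; 0.0188 with the replicate block), and nSyb and Syn, both synaptic vesicle genes, stayed at 2.22. Its part in the rises of the members was not tested. In bulk RNA, fewer cells of a type and less RNA per cell cannot be told apart.

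Most members were not detected in SL2 cells. On all 10 arrays 65 of 116 members (56%) stayed near the minimum, against 44.7% of all genes. The CYP4 clan, known for fatty acid hydroxylation, was undetected in 25 of 32 genes. UDP-glycosyltransferases were undetected in 20 of 35, the CYP3 clan in 14 of 37, the mitochondrial clan in 3 of 8 and the CYP2 clan in 3 of 4. Some members known from insecticide resistance or xenobiotic response were among the undetected ones. Cyp6g1, whose overexpression gives DDT resistance, read 2.23 to 2.27, and Cyp6a2, another xenobiotic-inducible P450, read 2.22. Other members known from resistance were detected, for instance Cyp12d1-d at 8.00 to 10.24 and Cyp12a4 at 3.94 to 7.08. Cyp4g1, the oenocyte enzyme that makes cuticular hydrocarbons, read 2.27 to 2.45.

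With GST 32 of 116 members (27.6%) had a mean above log2 4, against 49.5% of all genes. With M1 the count was 39 (33.6%, all genes 48.5%), and with M2 it was 38 (32.8%, all genes 48.7%). The array without dsRNA had 32 members above 4, against 49.7% of all genes. By array the count ran from 30 to 32 with GST, and on the M1 arrays it was 35, 37 and 43. On the M2 arrays it was 37, 38 and 45, so each knockdown array had more members above 4 than any GST array, and both replicate 3 arrays had the most. Members above 4 with GST, M1 and M2 alike numbered 31.

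**Figure D1:**
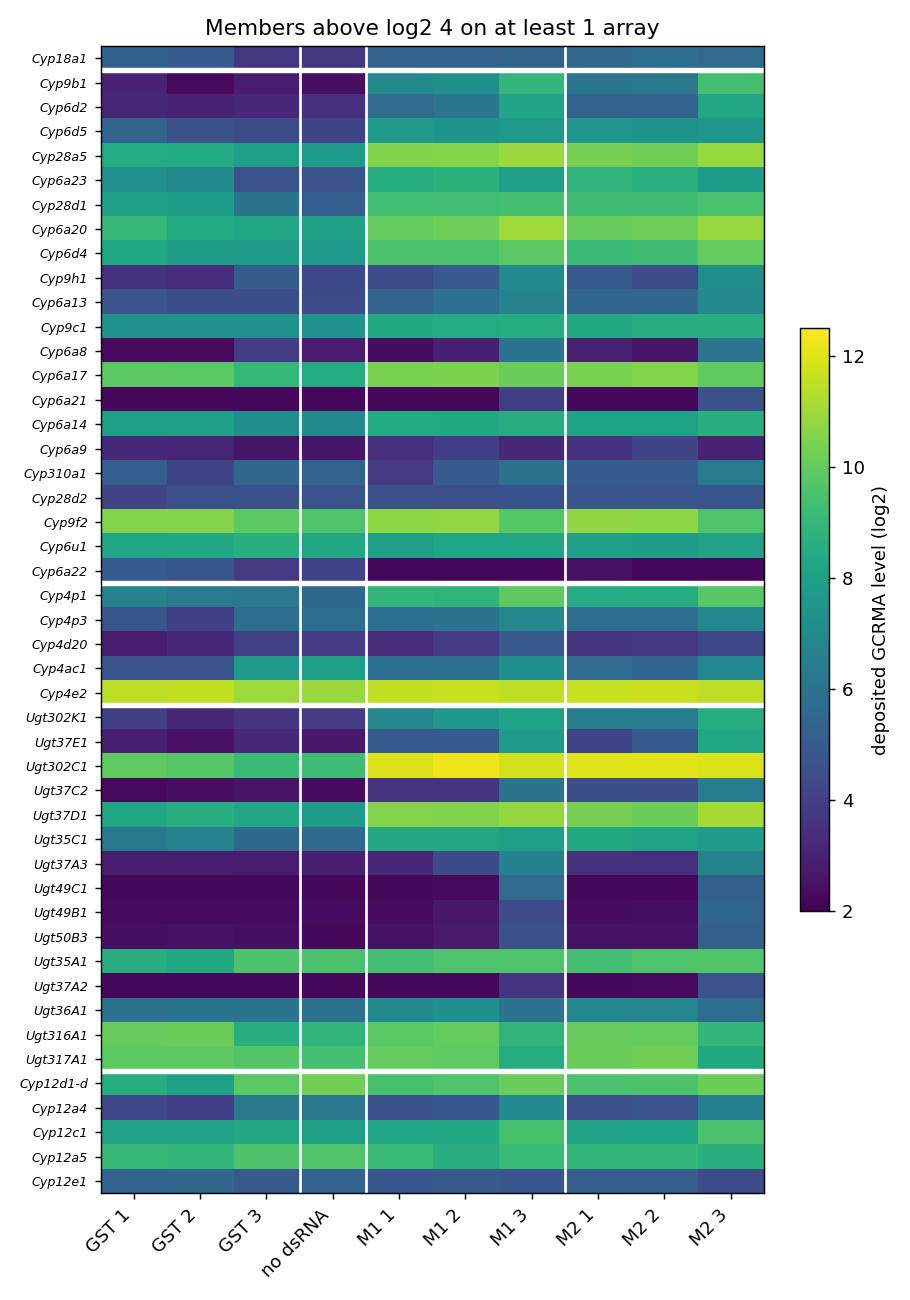
Deposited GCRMA level (log2, colour) on each of the 10 arrays (columns) for the 47 members above 4 on at least 1 array (1 line each, set out by class). Colours are to be read along a line, since levels of different probe sets are not on 1 scale. Lines above 4 only on the replicate 3 knockdown arrays include Cyp6a8, Ugt49B1, Ugt49C1 and Ugt50B3. For Cyp6a8 the third GST array also read higher, at 3.82 against 2.27 and 2.26 on the other GST arrays.

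Crossing of the level of 4 was mostly upward. A mean above 4 with both constructs but not with GST was seen for 7 members (6.03%), against 1.08% of all genes. These were Cyp9b1, Cyp6d2, Cyp9h1, Ugt302K1, Ugt37E1, Ugt37A3 and Ugt37C2. Of these, Cyp9h1 had a GST mean of 3.997, just under the line. In the other direction Cyp6a22 alone was above 4 with GST but with neither construct (0.862% of members, 1.94% of all genes). Cyp4d20 was above 4 with M1 alone, at a mean of 4.04.

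A large share of the members that could be tested was higher with knockdown. Of the 36 members that passed the level filter, 27 P450 and 9 UDP-glycosyltransferase genes, 16 rose and 0 fell (limma, knockdown against GST). Over all 5906 genes tested, 7.38% rose and 19.9% fell. Over 2-fold rises were seen for 15 members, against 4.28% of all genes. The median difference over the tested members was 1.02, against -0.07 over all genes tested. Over all 116 members, undetected ones included, it was 0.02. Members that are high only with knockdown could pass the filter through that group alone, so the count over tested members is a description.

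Separation between arrays gave a like picture. All 6 knockdown arrays lay above all 3 GST arrays for 23 of 116 members, against 5.86% of all genes, and for 19 of the 36 tested, against 10.1% of all genes tested. The reverse held for 2 members, Cyp6a22 and Cyp311a1, against 13.5% of all genes. For Cyp311a1 the separation lay at the floor, with a lowest GST array of 2.253 and a highest knockdown array of 2.251. Ugt301D1, among the 23, was undetected, at 2.24 to 2.27 with GST and 2.28 to 2.45 with knockdown. Of the 20 tested members that did not pass, 16 had a difference above 0 and 4 below, namely Cyp12a5, Ugt317A1, Cyp6u1 and Cyp12e1. With the replicate number as a block 23 of the 36 rose (background 16.7%) and 0 fell (background 28.6%). Without the level filter 12 members rose (10.3%, background 2.18%) and 1 fell, Cyp6a22 (background 8.33%).

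**Figure D2:**
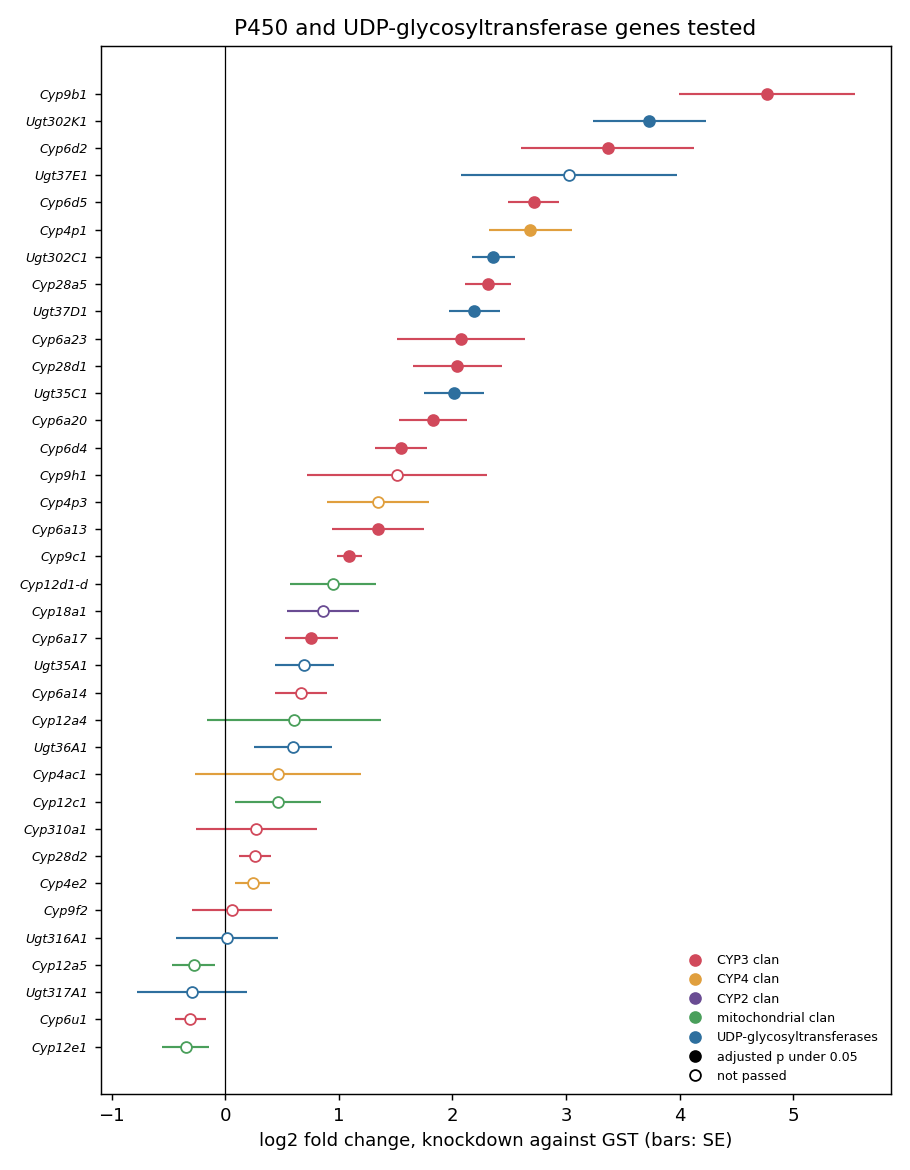
Log2 fold change of knockdown against GST (horizontal axis, bars are 1 SE) for the 36 tested members (vertical axis, coloured by class), with filled points for members past the adjusted p threshold. All 16 filled points lie to the right of 0, from Cyp6a17 at 0.76 to Cyp9b1 at 4.77.

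The CYP3 clan, the group of insect P450s best known for metabolising plant compounds and insecticides, held 11 of the 16 members that rose. Its 17 tested members had a median difference of 1.51. Those that rose were Cyp9b1, Cyp6d2, Cyp6d5, Cyp28a5, Cyp6a23, Cyp28d1, Cyp6a20, Cyp6d4, Cyp6a13, Cyp9c1 and Cyp6a17.

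Cyp9b1 went from near the minimum to a clear signal. Its levels were 3.04, 2.27 and 2.81 with GST, 2.45 without dsRNA, 7.01, 7.21 and 8.94 with M1, and 6.14, 6.15 and 9.38 with M2. The groups did not overlap, and both replicate 3 arrays were highest. It was higher by 4.77 ± 0.77 (SE; adjusted p = 0.00281, limma), by 3.98 in replicates 1 and 2 and by 6.35 in replicate 3. Its neighbour Cyp9b2 stayed at 2.22 or 2.23 on 9 arrays and reached 3.72 on the third M2 array.

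The Cyp6d members all rose. Cyp6d2, known in flies for a part in resistance to the alkaloid camptothecin, read 3.14, 3.01 and 3.17 with GST, 3.46 without dsRNA, 5.69, 6.10 and 8.12 with M1, and 5.34, 5.29 and 8.30 with M2. All knockdown arrays were above all others, and those of replicate 3 by more. The rise was 3.37 ± 0.76 (adjusted p = 0.0135, limma), with 2.53 in replicates 1 and 2 and 5.04 in replicate 3, and it missed the threshold without the second GST array (adjusted p = 0.0513).

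Cyp6d5, known for caffeine metabolism in flies, read 5.41, 4.60 and 4.39 with GST, 4.14 without dsRNA, 7.69, 7.43 and 7.61 with M1, and 7.47, 7.38 and 7.51 with M2. Its knockdown arrays lay close together and all were above GST. The rise was 2.71 ± 0.22 (adjusted p = 0.000107, limma), with 2.48 in replicates 1 and 2 and 3.17 in replicate 3. Cyp6d4 read 7.78 to 8.31 with GST and 9.13 to 9.99 with knockdown, a rise of 1.55 ± 0.23 (adjusted p = 0.00188, limma), with 1.25 in replicates 1 and 2 and 2.14 in replicate 3.

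The Cyp28 family is known from Drosophila species that meet toxic plant alkaloids, and Cyp28d1 for nicotine resistance in Drosophila melanogaster. Cyp28a5 read 8.46, 8.41 and 7.92 with GST, 7.82 without dsRNA, 10.53, 10.54 and 10.91 with M1, and 10.37, 10.23 and 10.89 with M2. Its groups were apart by more than their spread, and the rise was 2.31 ± 0.21 (adjusted p = 0.000156, limma), with 1.98 in replicates 1 and 2 and 2.98 in replicate 3. In annotation order on 2L Cyp28a5 stands between NimC2 and NimC1, the hemocyte marker that was higher by 2.20. Whether these adjacent rises are linked was not tested. Cyp28d1 read 7.95, 7.88 and 6.05 with GST, 5.16 without dsRNA, 9.32, 9.33 and 9.39 with M1, and 9.25, 9.23 and 9.48 with M2. Here the control arrays varied and the knockdown arrays hardly did: the third GST array and the array without dsRNA were low, while the knockdown arrays lay close together. The rise was 2.04 ± 0.39 (adjusted p = 0.00649, limma), with 1.37 in replicates 1 and 2 and 3.38 in replicate 3. Its neighbour Cyp28d2 differed by 0.26 ± 0.14 (adjusted p = 0.216, limma).

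Cyp6a23 behaved as Cyp28d1 did in the controls. It read 7.30, 7.04 and 4.70 with GST, 4.76 without dsRNA, 8.51, 8.73 and 7.95 with M1, and 8.82, 8.71 and 7.85 with M2. All knockdown arrays were above all GST arrays, although the GST values ranged widely. The rise was 2.08 ± 0.56 (adjusted p = 0.0283, limma) and missed the threshold in 4 of 10 fits that each left out 1 array, namely the first or second array of either construct (adjusted p up to 0.0607). It was 1.52 in replicates 1 and 2 and 3.19 in replicate 3. Cyp6a20, known for its link to male aggression, rose by 1.83 ± 0.30 (adjusted p = 0.00286, limma), from 8.18 to 9.03 with GST to 10.01 to 10.94 with knockdown, with 1.38 in replicates 1 and 2 and 2.74 in replicate 3.

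The smaller rises were those of Cyp6a13, Cyp9c1 and Cyp6a17. Cyp9c1 was the most even, at 7.36 to 7.41 with GST and 8.39 to 8.60 with knockdown, a rise of 1.09 ± 0.11 (adjusted p = 0.000279, limma), with 1.05 in replicates 1 and 2 and 1.17 in replicate 3. Cyp6a13 rose by 1.34 ± 0.40 (adjusted p = 0.0429, limma), and this call was lost in 5 of 10 fits that left out 1 array, those without any 1 GST array or without M1 replicate 2 or 3 (adjusted p up to 0.122). It was 0.87 in replicates 1 and 2 and 2.30 in replicate 3. Cyp6a17, known for a part in temperature preference, rose by 0.76 ± 0.23 (adjusted p = 0.0475, limma), and its call was lost in 8 of 10 such fits, all but those without the third M2 array or the array without dsRNA (adjusted p up to 0.135). It was 0.62 in replicates 1 and 2 and 1.02 in replicate 3.

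**Figure D3:**
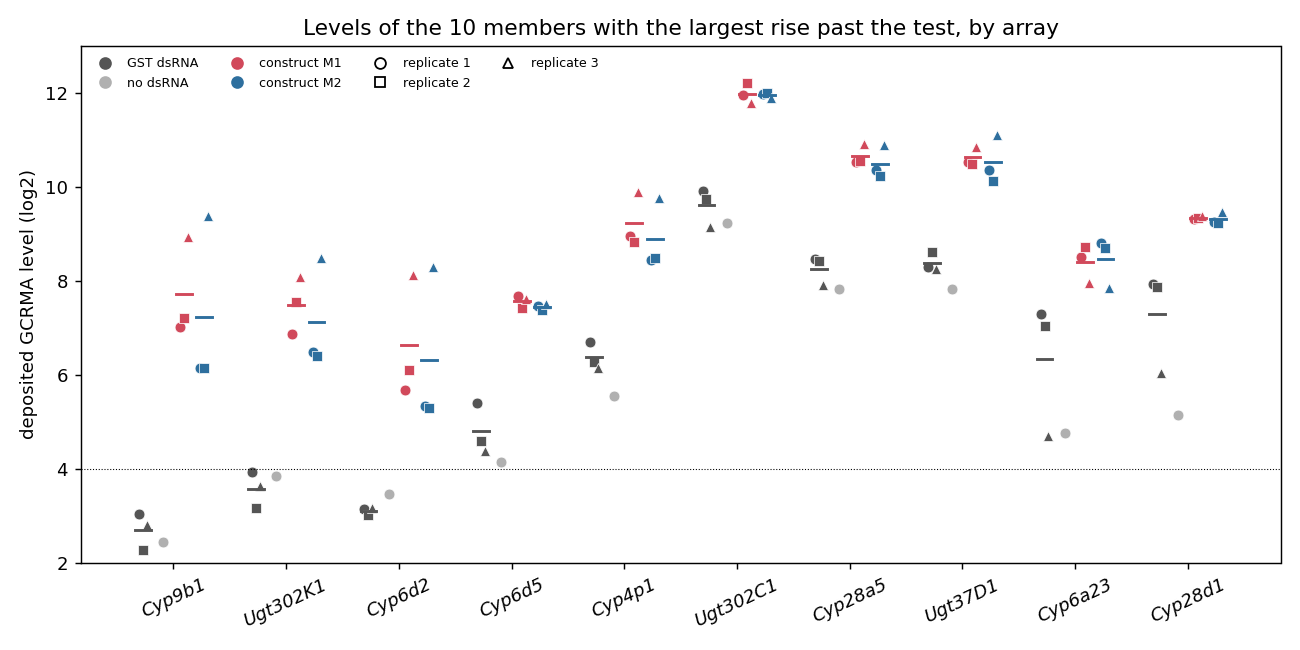
Deposited GCRMA level (log2, vertical axis) on each array for the 10 members with the largest rise past the test (horizontal axis), with colour for the group, marker shape for the replicate, short lines for group means and a dotted line at 4. For each of the 10, all 6 knockdown points lie above all 3 GST points. Replicate 3 knockdown points lie above those of replicates 1 and 2 for Cyp9b1, Cyp6d2, Ugt302K1, Cyp4p1, Cyp28a5, Ugt37D1 and Cyp28d1. For Cyp6d5, Ugt302C1 and Cyp6a23 they do not.

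Cyp6a22 was the exception in direction. It read 5.05, 4.81 and 3.78 with GST, 4.11 without dsRNA, 2.22, 2.23 and 2.22 with M1, and 2.48, 2.22 and 2.22 with M2. Every knockdown array was at or near the minimum and below every control array. Its mean over the arrays kept it under the level filter, and in the fit without that filter it fell by 2.28 on the log2 scale (SE 0.27, adjusted p = 0.00458, limma). Since the knockdown arrays read the table minimum, the size of the fall is limited by that floor.

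The Cyp6a genes on chromosome arm 2R give both directions side by side. In RefSeq Release 6 order, with no other protein-coding gene between them, 9 members stand in a row: Cyp6a22, Cyp6a17, Cyp6a23, Cyp6a19, Cyp6a9, Cyp6a20, Cyp6a21, Cyp6a8 and Cyp317a1. The first fell as described, and Cyp6a17, Cyp6a23 and Cyp6a20 rose. The other 5 were below the filter, with mean differences from 0.05 for Cyp317a1 to 1.08 for Cyp6a8. Cyp6a8, known as a caffeine- and phenobarbital-inducible P450, read 2.26 to 3.82 with GST and 2.36 to 3.06 with knockdown in replicates 1 and 2. On the replicate 3 knockdown arrays it read 6.06 with M1 and 6.13 with M2. These paralogs are alike in sequence, and how far their probes tell them apart was not tested.

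**Figure D4:**
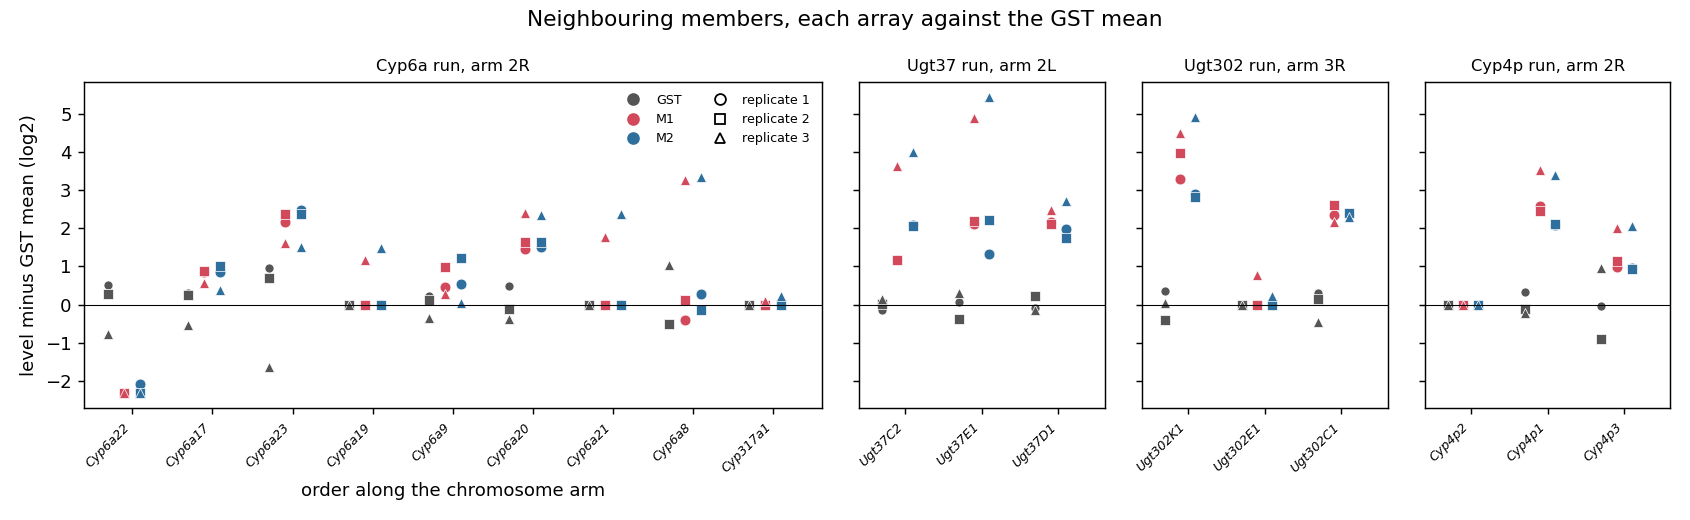
Level minus the GST mean (log2, vertical axis) on each GST, M1 and M2 array for members that stand next to each other on a chromosome arm, in annotation order (horizontal axis). In the Cyp6a run Cyp6a22 lies at -2.28 on average while Cyp6a17, Cyp6a23 and Cyp6a20 lie above 0, and in the Ugt37 and Ugt302 runs members that rose stand beside others that did not pass or were not tested.

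Runs of this kind, in which members stand next to each other, numbered 21 and held 63 of the 116 members. They held 10 of the 16 members that rose, from 19 tested, and 6 of the 17 tested members outside runs rose. By chromosome arm 8 of the rises lay on 2R, 5 on 3R and 3 on 2L, from 15, 10 and 8 tested members. The X chromosome carried 14 members, of which 1 was tested and did not pass, and 3L carried 8, of which neither of the 2 tested passed. Shares of all tested genes by arm or in runs were not computed, so these counts are a description.

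Of the members that did not pass in the CYP3 clan, Cyp9f2 read 10.57, 10.56 and 9.87 with GST and 9.61 to 10.78 with knockdown, a difference of 0.06 ± 0.36 (adjusted p = 0.934, limma). Cyp9h1 read 3.55, 3.34 and 5.10 with GST, 4.34 without dsRNA, 4.40, 4.95 and 7.04 with M1, and 5.06, 4.39 and 7.20 with M2. Within each replicate number its knockdown arrays were above GST, but the groups overlapped. The difference was 1.51 ± 0.79 (adjusted p = 0.213, limma), and 0.00225 with the replicate number as a block. Cyp6a14 differed by 0.67 ± 0.23 (adjusted p = 0.0654, limma).

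In the CYP4 clan 4 members were tested and Cyp4p1 alone rose. Cyp4p1 read 6.70, 6.27 and 6.15 with GST, 5.55 without dsRNA, 8.96, 8.82 and 9.89 with M1, and 8.45, 8.50 and 9.76 with M2. The groups did not overlap, and the rise was 2.69 ± 0.36 (adjusted p = 0.00112, limma), with 2.19 in replicates 1 and 2 and 3.67 in replicate 3. It stands on 2R between Cyp4p2, which was undetected, and Cyp4p3. The levels of Cyp4p3 were 4.80, 3.94 and 5.79 with GST, 5.78 without dsRNA, 5.84, 6.00 and 6.84 with M1, and 5.80, 5.79 and 6.90 with M2. Only the third GST array reached the knockdown range, and the adjusted p was 0.0622 for a difference of 1.35 ± 0.45, or 0.00146 with the replicate number as a block (limma). Cyp4e2 read 10.97 to 11.52 with GST and 11.47 to 11.65 with knockdown, a difference of 0.24 ± 0.15 (adjusted p = 0.311, limma).

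No member of the mitochondrial clan passed, of 5 tested, and the median difference was 0.46. This clan takes its electrons from adrenodoxin-type ferredoxins in the mitochondrion. Cyp12d1-d, one of a pair of near-identical genes known for DDT and dicyclanil resistance, read 8.51, 8.00 and 9.79 with GST and 10.24 without dsRNA. With M1 it read 9.43, 9.59 and 10.11, and with M2 9.51, 9.55 and 10.12. The third GST array and the array without dsRNA were as high as the knockdown arrays. The difference was 0.95 ± 0.38 (adjusted p = 0.109, limma; 0.0113 with the replicate block), and the signal cannot be assigned between the near-identical copies. Cyp12a4, which gives lufenuron resistance when overexpressed, differed by 0.61 ± 0.76 (adjusted p = 0.639, limma; 0.00818 with the replicate block). In replicates 1 and 2 it read 4.25 and 3.94 with GST and 4.57 to 4.83 with knockdown, and in replicate 3 it read 6.21 with GST and 7.08 and 6.61 with knockdown.

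In the CYP2 clan only Cyp18a1 was tested. It encodes the ecdysteroid hydroxylase that inactivates the moulting hormone. Its probe set with the higher mean read 5.27, 5.02 and 3.70 with GST, 3.67 without dsRNA, 5.29, 5.30 and 5.40 with M1, and 5.64, 5.83 and 5.67 with M2. The groups did not overlap, but the first GST array lay just under the lowest M1 array, and the third GST array and the array without dsRNA were low. The difference was 0.86 ± 0.31 (adjusted p = 0.0833, limma; 0.0457 with the replicate block). Its other probe set rose by 1.68 ± 0.36 (adjusted p = 0.0107, limma), so the probe sets disagree on the call.

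Among UDP-glycosyltransferases 4 of 9 tested members rose, with a median difference of 2.01 over the 9. Ugt302C1 and Ugt302K1, which stand in 1 run on 3R with Ugt302E1 between them, both rose. Ugt302C1 read 9.92, 9.75 and 9.15 with GST, 9.24 without dsRNA, 11.95, 12.22 and 11.78 with M1, and 11.97, 12.00 and 11.90 with M2. All knockdown arrays were close to each other and far above the controls, a rise of 2.36 ± 0.19 (adjusted p = 0.000106, limma), with 2.20 in replicates 1 and 2 and 2.68 in replicate 3. Ugt302K1 read 3.94, 3.18 and 3.63 with GST, 3.84 without dsRNA, 6.87, 7.54 and 8.08 with M1, and 6.49, 6.41 and 8.50 with M2. The groups did not overlap, and it rose by 3.73 ± 0.50 (adjusted p = 0.00105, limma), with 3.27 in replicates 1 and 2 and 4.66 in replicate 3.

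The Ugt37 run on 2L holds Ugt37C2, Ugt37E1 and Ugt37D1. Ugt37D1 read 8.29, 8.61 and 8.25 with GST, 7.82 without dsRNA, 10.54, 10.49 and 10.85 with M1, and 10.35, 10.13 and 11.10 with M2. The groups were clearly apart and the rise was 2.19 ± 0.23 (adjusted p = 0.000301, limma), with 1.93 in replicates 1 and 2 and 2.72 in replicate 3. Ugt37E1 read 2.92, 2.49 and 3.17 with GST, 2.73 without dsRNA, 4.97, 5.06 and 7.75 with M1, and 4.18, 5.07 and 8.29 with M2. Although no knockdown array reached down to the controls, the spread between replicates was wide and the difference of 3.03 ± 0.95 just missed the threshold (adjusted p = 0.0505, limma; 0.0045 with the replicate block). Ugt37C2 was under the level filter, at 2.27 to 2.57 with GST, 3.58 to 4.50 with knockdown in replicates 1 and 2, and 6.05 and 6.41 in replicate 3.

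Ugt35C1 rose by 2.01 ± 0.26 (adjusted p = 0.000923, limma), from 5.49 to 6.64 with GST to 7.79 to 8.37 with knockdown, with 1.83 in replicates 1 and 2 and 2.39 in replicate 3. Ugt35A1 differed by 0.70 ± 0.26 (adjusted p = 0.0865, limma; 0.0317 with the replicate block). Ugt316A1 differed by 0.02 ± 0.45 (adjusted p = 0.985, limma) and Ugt317A1 by -0.29 ± 0.49 (adjusted p = 0.732, limma).

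Each construct was also set against GST, with the same 3 GST arrays in both comparisons. With M1 13 of 36 members rose (36.1%, background 5.4%) and 0 fell (background 16.9%). With M2 13 rose (36.1%, background 5.06%) and 0 fell (background 15.6%). With the replicate number as a block the counts of rises were 21 and 22, with no background computed per construct. In the combined comparison that block raised the background of rises from 7.38% to 16.7%. Cyp9b1 was higher by 5.02 with M1 and by 4.52 with M2. Ugt302K1 was higher by 3.92 and by 3.55, and Cyp6d5 by 2.78 and by 2.65. Cyp6a17, Cyp6a13 and Cyp6a23, which passed in the combined comparison, passed with neither construct alone, for instance Cyp6a23 at an adjusted p of 0.0607 with M1 and 0.0578 with M2 (limma).

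Between the constructs no member differed past the threshold (limma, 0 of 36, background 0%), and none had an unadjusted p under 0.05. The differences, M2 minus M1, ran from -0.50 for Cyp9b1 to 0.56 for Cyp310a1. Their 95% intervals had a median half-width of 0.928 log2 units. For Cyp9c1, with the narrowest interval, it ran from -0.23 to 0.36, and for Cyp9b1 from -2.55 to 1.56, which takes in differences of over 2-fold either way.

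The array without dsRNA did not differ from GST past the threshold for any member (limma, 0 of 36, background 0%), with 3 at an unadjusted p under 0.05. These were Cyp28d1 at -2.13, Cyp6a17 at -1.08 and Cyp12d1-d at 1.47. Against the third GST array alone, which stands in the same array set, the differences were -0.89, -0.53 and 0.45. The comparison rests on 1 array, assumed to vary like the other groups.

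All 16 members that rose had a positive difference in both array sets, and all 16 had the larger difference in replicate 3. The 16 were called on these same arrays together, which favours a positive sign in each set. No background was computed for either count. For Cyp6a17, Cyp6a23, Ugt302C1 and Ugt35C1 the replicate 3 knockdown arrays read below those of replicates 1 and 2. The larger difference of these members came from a lower GST array in replicate 3, for Cyp6a23 4.70 against 7.30 and 7.04. The median difference of the 16 was 1.88 in replicates 1 and 2 and 2.86 in replicate 3, where 1 GST array is the only control. The difference between sets was fitted as an interaction in limma, and 15 of 36 members passed (41.7%, background 8.45%), 11 of them with the larger positive effect in replicate 3 (background 4.05%). Replicate 3 holds 1 array of each group, and its M1 and M2 arrays deviated together (r = 0.93), so the spread between replicates within it was not measured and these p-values are too small. The counts are a description for that reason, and no p is given for single members. The count was 5, 6 and 2 without M2 replicate 1, 2 or 3, and 0 when arrays were centred on the spike-in probe sets.

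Members with a larger difference in replicate 3 included Cyp28d1, at 1.37 in replicates 1 and 2 and 3.38 in replicate 3, and Cyp6d2, at 2.53 and 5.04. Cyp18a1 differed by 0.37 and 1.83, and Cyp6a14 by 0.28 and 1.45. In 4 of the 15 the difference was smaller or opposite in replicate 3. Cyp4ac1 differed by 0.99 in replicates 1 and 2 and by -0.58 in replicate 3. Its control arrays themselves were split, at 4.75 and 4.68 against 7.67 on the third GST array and 7.94 without dsRNA. Ugt317A1 differed by 0.18 and -1.24, Ugt36A1 by 0.98 and -0.18, and Ugt35A1 by 1.02 and 0.06.

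**Figure D5:**
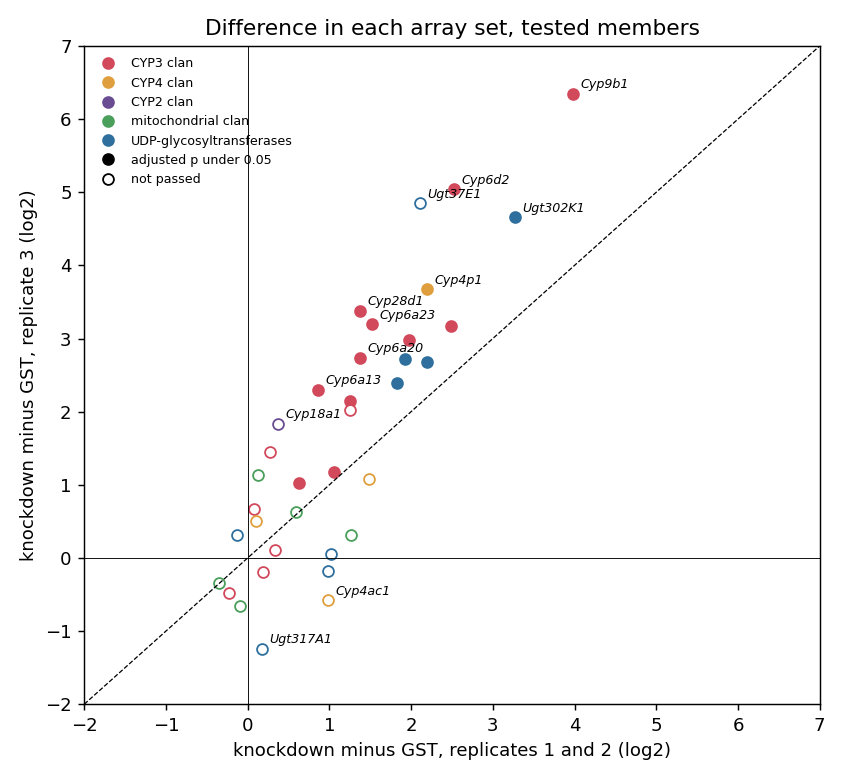
Knockdown minus GST in replicate 3 (log2, vertical axis) against the same difference in replicates 1 and 2 (horizontal axis) for the 36 tested members, coloured by class, with the line of equal values. The 16 members that rose lie above the line and to the right of 0, and Cyp4ac1, Ugt317A1 and Ugt36A1 lie below 0 on the vertical axis.

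A further 4 members were above 4 on both replicate 3 knockdown arrays and on no other array, which is 3.45% of members and 0.926% of all genes. These were Cyp6a8, Ugt50B3, Ugt49B1 and Ugt49C1. Ugt49C1 read 2.22 to 2.31 on the other 8 arrays and 5.66 and 5.21 on these. Its neighbour Ugt49B1 read 4.40 and 5.44 there, and Ugt50B3 read 4.58 and 5.24. Ugt37A3, below the filter as well, read 6.60 and 6.75 there, 2.82 to 2.89 on the control arrays and 3.21 to 4.37 on the other knockdown arrays. The summed marker lists moved with the array sets too. The mean of 4 crystal cell genes was 5.45 to 5.73 on arrays of replicates 1 and 2, 7.63 to 7.98 on those of replicate 3 and 8.46 without dsRNA. That mean hides opposite differences between knockdown and GST within replicate 3. These were -2.13 for PPO1, -2.31 for PPO2, 3.43 for peb and 0.20 for lz. The mean of both oenocyte genes reached 3.71 and 3.40 on the replicate 3 arrays of M1 and M2. Most of this came from FASN2, which differed from GST by 2.28 in replicate 3, while FASN3 differed by 0.20. Cyp4g1, the oenocyte P450, read 2.28 on both of these arrays. The part of these cell types in the members' values was not tested.

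Some members lie over or inside other genes, which matters where probes could read either. Of the 16 members that rose, 6 overlap the span of another gene on the array. For 5 of them, Cyp4p1, Cyp9c1, Cyp28d1, Cyp9b1 and Cyp6d2, the other gene stayed below a mean of 3 with GST and with knockdown. For Cyp6d5 the other gene is rdx, which differed by 0.37 ± 0.26 (adjusted p = 0.361, limma).

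The genes that work beside the members were read from lists. As background for their counts, 7.38% of all genes tested rose and 19.9% fell. With the replicate block these shares were 16.7% and 28.6%. Of 6 genes listed as electron donors, 4 were on the array and all 4 were tested, while Cpr and dare had no reading here. Whether each listed gene serves P450s in these cells was not tested. Cyt-b5-r, a cytochrome b5-related gene, rose by 3.71 ± 0.55 (adjusted p = 0.00171, limma), while the electron carrier Cyt-b5 differed by 0.48 ± 0.24 (adjusted p = 0.186). With the replicate block 2 rose, the second being the mitochondrial ferredoxin Fdx1 (0.88 ± 0.30, adjusted p = 0.065 in limma and 0.0169 with the block). Of 7 tested genes of heme synthesis, 1 rose and 1 fell. FeCH, the ferrochelatase that inserts iron to form heme, rose by 0.83 ± 0.24 (adjusted p = 0.0361, limma), and Ppox, the enzyme of the step before it, fell by 1.22 (SE 0.20, adjusted p = 0.00323). With the replicate block 3 rose, FeCH, Alas and Pbgs, and 2 fell, Ppox and Uros1. Of 3 tested genes of UDP-sugar supply, Pgm1, a phosphoglucomutase, rose by 1.42 ± 0.17 (adjusted p = 0.0006, limma), and 0 fell. With the replicate block sgl, the UDP-glucose dehydrogenase, fell by 0.33 on the log2 scale (adjusted p = 0.0465, limma).

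None of 9 tested xenobiotic regulators passed (limma), and with the replicate block 3 rose (background 16.7%), namely Keap1, Met and gce. Keap1, the inhibitor of the stress-response factor cnc, differed by 1.21 ± 0.39 (adjusted p = 0.0552, limma; 0.00329 with the block), and cnc by 0.29 ± 0.16 (adjusted p = 0.246). The 8 Halloween genes, which make the moulting hormone and include P450s with other symbols, were all below 4 in every group.

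Other detoxification genes, glutathione S-transferases and ABC transporters, moved in both directions. Of 27 tested 7 rose (background 7.38%) and 3 fell (background 19.9%), with a median difference of 0.42. With the replicate block 14 rose (background 16.7%) and 4 fell (background 28.6%). GstD9 rose by 1.83 ± 0.15 (adjusted p = 0.000105, limma). The largest rises, named after their values were seen, were those of GstD5 at 4.92 ± 0.74 (adjusted p = 0.00185), GstD2 at 3.43 ± 0.68 (0.00711) and the transporter Mdr49 at 2.99 ± 0.63 (0.00943). GstO1 fell by 3.41 (SE 0.18, adjusted p = 1.2e-05), GstZ1 by 3.40 (SE 0.19, adjusted p = 1.9e-05) and GstE13 by 3.89 (SE 0.41, adjusted p = 0.000332).

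The direction of the members was read against the scaling of the arrays. The median difference over all tested genes was -0.07 as deposited, 0.14 with centring on the spike-in probe sets and -0.69 when the second GST array, whose spike-in median was 13.1 against 10.7 and 10.8 on the other GST arrays, was also left out. The median over the 36 tested members was 1.02, 1.23 and 0.39 in these settings. Centring moves all genes on an array by the same amount, so it leaves the distance between members and other genes as it was. The share of called genes that fell was 72.9% as deposited, 62.7% with quantile normalisation, 54.6% with spike-in centring and 91.2% with spike-in centring without that array.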

How the data were processed

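RNA from 10 samples was read on 10 arrays. The deposited values are log2 levels that the authors made with GCRMA, per the submitters' processing notes, and no further normalisation was applied. The sources used here do not give its version or settings. Samples were grouped by source name, and the third M2 array, whose title names M3, was grouped as M2 by its source name and description. Of 18952 probe sets, 183 controls were left out. For each gene, the probe set highest on average across arrays stood for it, taken from those naming 1 gene. Names, arms and neighbours came from RefSeq Release 6, and all 116 members matched. Of the probe sets whose symbols fit the rule, 2 genes had more than 1, and 2 further probe sets naming several genes were left out.

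Tests were run in R 4.3.3 with limma 3.58.1 (lmFit, eBayes, two-sided) on the 4 group means of all 10 arrays, over 7298 probe sets with a mean of at least 4, with Benjamini-Hochberg adjustment and a threshold of 0.05. The procedure was tested on simulated data whose arrays were drawn independently. That setting lacks the array sets seen here, so it does not measure their effect on the error rate. The labels call the replicates biological. The 9 pairs of arrays with the same replicate number deviated together (r from 0.34 to 0.93). This does not set pairs apart from array sets. In replicates 1 and 2, GST and knockdown arrays of different numbers had the higher r, 0.55 to 0.67 against 0.34 to 0.49. Between M1 and M2 the same numbers had the higher r, 0.79 and 0.83 against 0.70 and 0.75. The main test has no block. The fit blocked on the replicate number is given where it changes a member's call or a list's count. The number of arrays limits the precision. Members and lists were chosen with earlier results of these data known. Named were all members that passed, the 4 highest and the 4 most changed of those that did not, those under the filter with a group mean above 4, up to 5 interaction calls each way and up to 4 called genes per list. Alternatives were other filters, normalisations, blocks, weights and left-out arrays. MBD-R2 was not analysed here. Plotting used matplotlib 3.10.9 under Python 3.11.15.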

Additional observations from a re-analysis of the deposited data

How the results depend on the processing

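No member that rose changed direction under any alternative run. The count of 16 rises moved by over 1.5 times only with centring on the spike-in probe sets, to 8 (background 1.41%, against 7.38% as deposited). The same centring gave 4 rises for M1, 5 for M2 and 0 for the difference between array sets. The replicate block gave 21 for M1 and 22 for M2, and the array set as a block gave 24 and 23. The count of falls, 0 as reported, became 1 without the level filter in the combined, M1 and M2 comparisons. It became 1 with the array set as a block (Cyp6u1 in the combined comparison, adjusted p = 0.037 in limma, and 1 in M2) and 1 in replicates 1 and 2 alone (Cyp12e1, adjusted p = 0.0364). Without the third GST array 1 member was lower without dsRNA than with GST, so leaving out 1 array gave 0 to 1. For the difference between array sets leaving out 1 array gave 2 to 15. That difference has no value without the third GST array.

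Members near 0 turned sign. Ugt316A1 differed by -0.0098 with array weights, by -0.13 in replicates 1 and 2 and by -0.30 with spike-in centring without the second GST array. Ugt317A1 differed by 0.15 with array weights and 0.18 in replicates 1 and 2. Cyp9f2 differed by -0.0076 with quantile normalisation. With spike-in centring without the second GST array Cyp9f2 differed by -0.41, Cyp4e2 by -0.24 and Cyp12d1-d by -0.0135. Leaving out 1 array gave -0.17 to 0.25 for Cyp9f2, -0.49 to 0.28 for Ugt316A1 and -0.46 to 0.0064 for Ugt317A1. The cause of these changes was not tested. Levels near the table minimum of 2.22 limit what can be said of the undetected members.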
